A study of Caenorhabditis elegans with 9 samples.

Results

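Worms given nicotinic acid were compared with worms given water in 6 of the 9 RNA sequencing libraries of the study, 3 per group, across every gene of the deposited count table. The animals were whole Caenorhabditis elegans adults, taken 48 hours after the L4 stage, the last larval stage, from plates poured from 1 batch of agar. The sample labels give nicotinic acid at 1 mM while the treatment protocol gives 1 nM, so the dose is uncertain. The control plates held water, and the remaining 3 libraries are from worms given 1-methylnicotinamide (MNA) at 1 µM. No strain is named in the labels, and all groups shared medium, stage and harvest. Nothing in the labels says that replicates were separate cultures, and the p-values then cover only the spread among these libraries, which may be technical.

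Nicotinic acid is a form of vitamin B3 and a precursor of NAD, the cofactor that carries electrons in metabolism. In the Preiss-Handler route a phosphoribosyltransferase turns nicotinic acid into its mononucleotide, an adenylyltransferase adds the adenylate group, and NAD synthetase makes the amide. Worms also make NAD from tryptophan, and they recover nicotinic acid from nicotinamide with the nicotinamidases PNC-1 and PNC-2.

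The 3 nicotinic acid libraries held 18501261 to 31247605 counts and the 3 water libraries 22434246 to 26655263, and the detection floor of 3 counts stood for 0.096 to 0.162 CPM, a unit that puts all libraries on one size. Of 45461 entries 13985 passed the filter on low counts and were tested with edgeR's quasi-likelihood test. At a Benjamini-Hochberg adjusted p below 0.05, 272 genes (1.94%) rose and 475 (3.4%) fell with nicotinic acid, together 5.34% of those tested. By at least 2-fold, 160 (1.14%) rose and 162 (1.16%) fell. Rises were fewer but larger, with a median log2 fold change of 1.28 among the genes that rose and -0.76 among those that fell. The libraries of the groups did not overlap for 1500 genes higher with nicotinic acid (10.7%) and 1659 lower (11.9%). Among genes called, 272 of 272 higher and 474 of 475 lower did not overlap, so a lack of overlap adds little to a call.

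Nicotinic acid replicate 1 stood apart from the others of its group. On the first principal component of the 6 libraries, which held 53.2% of the variance, it lay at -40.6, against -15.9 and -16.1 for the other nicotinic acid libraries and 17.6 to 30.7 for the water libraries. It was the highest nicotinic acid library for 174 of the 272 genes that rose and the lowest for 354 of the 475 that fell. Without it 171 genes rose and 253 fell. Without water replicate 1 the numbers were 88 and 166, without water replicate 3 they were 144 and 254, and without nicotinic acid replicate 3 they were 267 and 312. The model was also refitted 9 times with a different library omitted. Of the genes called with all libraries, 58 higher (21.3%) and 139 lower (29.3%) passed in every one of these refits, and such a call is named stable here.

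**Figure D1:**
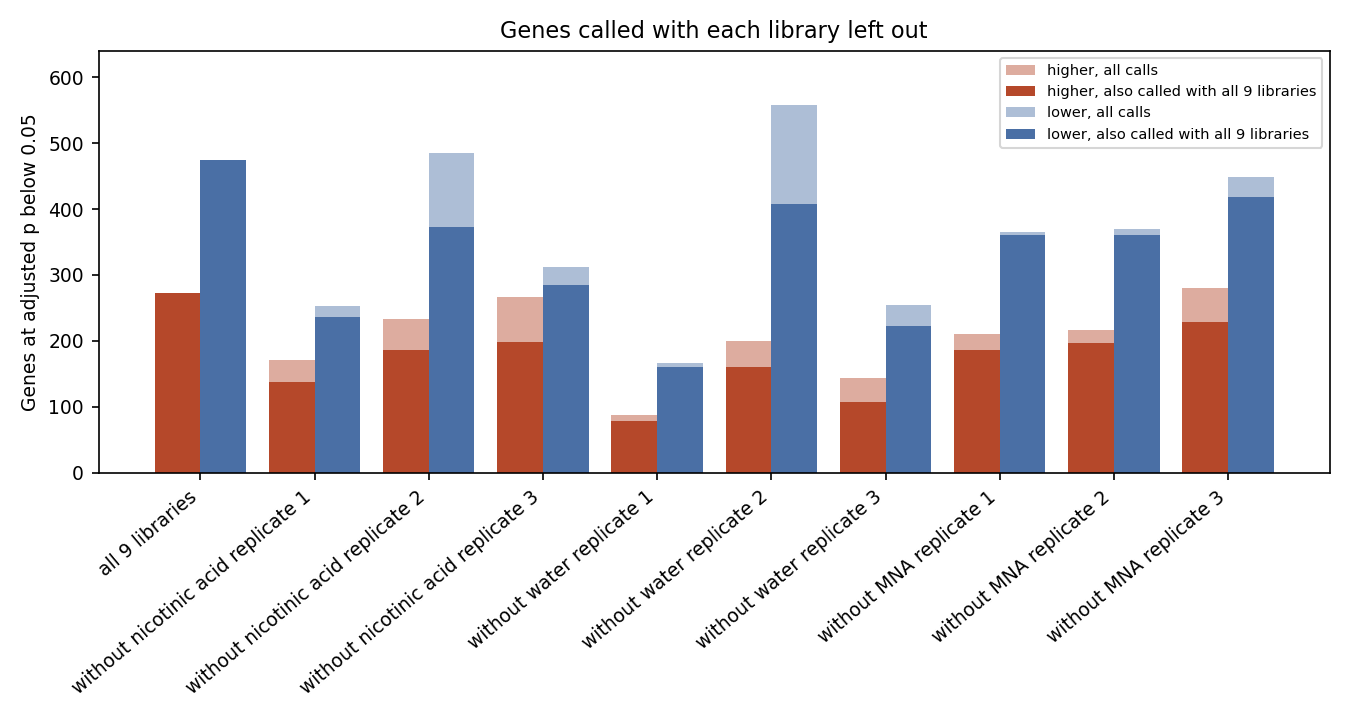
Number of genes at an edgeR adjusted p below 0.05 (vertical axis) with all 9 libraries and with each library left out in turn, higher with nicotinic acid (red) and lower (blue), the dark part of each bar being genes also called with all 9. The bars are lowest without water replicate 1, at 88 genes higher and 166 lower, of which 79 and 161 are shared with the fit of all 9 libraries.

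The enzymes that make NAD, which handle the compound given, did not pass the test. None of 14 NAD synthesis and salvage genes tested (of 15 in the list) passed in edgeR, DESeq2 or limma-voom, against 1.94% higher and 3.4% lower among all genes tested in edgeR. An unadjusted p below 0.05 was found in 3 of the 14, against 2686 of the 13985 genes tested (19.2%). The list had 10 members above 0 and a median log2 fold change of 0.099, against -0.0002 over all genes tested. The nicotinic acid phosphoribosyltransferase gene nprt-1, which takes the first step of the Preiss-Handler route, had 89.6, 95.1 and 93.4 CPM with nicotinic acid, against 99.3, 96.0 and 89.9 CPM with water. Its libraries overlapped, and the 95% interval of its log2 fold change ran from -0.14 to 0.06. The NAD synthetase gene qns-1 was at -0.02 (interval -0.12 to 0.08), the adenylyltransferase gene nmat-2 at 0.07 (-0.15 to 0.29) and the nicotinamide riboside kinase gene nmrk-1 at 0.04 (-0.09 to 0.17), all on the log2 scale.

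In the tryptophan arm, haao-1, which opens the ring of 3-hydroxyanthranilate, had 11.1, 12.4 and 8.72 CPM with nicotinic acid, against 7.69, 8.62 and 7.55 CPM with water. Every nicotinic acid library lay above every water library, at a log2 fold change of 0.42 (SE 0.13), but it missed the threshold (edgeR adjusted p = 0.0887). It passed without nicotinic acid replicate 3 (edgeR adjusted p = 0.0298) and with no filter on low counts (0.0380). The tryptophan dioxygenase gene tdo-2, at the start of that arm, was at 0.22 (interval 0.03 to 0.42, edgeR adjusted p = 0.197) and the kynureninase gene kynu-1 at 0.13 (edgeR adjusted p = 0.505), which passed without water replicate 2 (0.0474). The nicotinamidase gene pnc-1 had 27.6, 26.7 and 28.3 CPM with nicotinic acid, against 24.7, 25.0 and 25.6 CPM with water (log2 fold change 0.13, interval -0.03 to 0.30). Its relative pnc-2 had 15, 14 and 21 counts with nicotinic acid, against 7, 8 and 11 with water (log2 fold change 0.83, interval 0.05 to 1.62, edgeR adjusted p = 0.225). Both nicotinamidase genes were higher in each nicotinic acid library than in any water library, without passing the test.

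Genes that spend NAD, or that methylate nicotinamide, gave 0 of 12 genes that passed in edgeR, DESeq2 or limma-voom, with 2 at an unadjusted p below 0.05, and 1 that passed without water replicate 2, tir-1, described with the PMK-1 pathway. The sirtuin deacetylase gene sir-2.1 had 89.2, 88.7 and 89.1 CPM with nicotinic acid and 91.0, 85.4 and 87.0 CPM with water (log2 fold change 0.02, interval -0.07 to 0.11). The polymerase genes parp-1 and parp-2, which build ADP-ribose chains, were at -0.02 and -0.01, and the nicotinamide N-methyltransferase genes anmt-1 and anmt-2 at -0.10 and 0.08 on the log2 scale. The third of these, anmt-3, lay at -0.37 with no overlap between groups (edgeR adjusted p = 0.217).

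The 12 falls with the smallest p ranged from -0.50 in ZK105.1 to -3.69 in nlp-39 on the log2 scale. Y37H2A.14, for which no role is given here, had 13.6, 16.8 and 16.3 CPM with nicotinic acid, against 33.8, 33.7 and 37.5 CPM with water (log2 fold change -1.18 with SE 0.09, edgeR adjusted p = 8.08e-05). The gene sax-2, a member of the Furry family that acts in neuron shape, had 135, 157 and 146 CPM with nicotinic acid, against 265, 261 and 244 CPM with water (-0.81, SE 0.08, edgeR adjusted p = 0.000718). The groups were far apart in both genes, with each nicotinic acid library well below the lowest water library. The cysteine protease inhibitor gene cpi-1, of the cystatin family, had 65.5, 75.7 and 65.8 CPM with nicotinic acid, against 169, 143 and 128 CPM with water (-1.09, SE 0.10, edgeR adjusted p = 0.000747). The bZIP transcription factor gene atf-2 had 3.38, 3.90 and 3.48 CPM with nicotinic acid, against 12.7, 7.35 and 13.1 CPM with water (-1.63, SE 0.20, edgeR adjusted p = 0.0015). Here the nicotinic acid libraries lay close together while water replicate 2 was lower than the other controls. The P-type ATPase gene catp-3 had 24.5, 23.5 and 27.2 CPM with nicotinic acid, against 51.8, 54.7 and 48.6 CPM with water (-1.04, SE 0.10, edgeR adjusted p = 0.000478). The others of the 12 were F17C11.11 (-0.81), C27A7.8 (-1.18), Y45F10C.4 (-0.84), the collagen gene col-76 (-0.80) and cutl-16, described with the cuticlins.

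Among the rises with the smallest p, xdh-1, the xanthine dehydrogenase gene of purine breakdown, had 30.4, 33.2 and 29.1 CPM with nicotinic acid, against 19.97, 21.9 and 21.4 CPM with water (log2 fold change 0.55 with SE 0.07, edgeR adjusted p = 0.00162). The cathepsin A-like carboxypeptidase gene ctsa-3.1 had 51.8, 52.8 and 49.6 CPM with nicotinic acid, against 37.2, 37.7 and 38 CPM with water (0.45, SE 0.05, edgeR adjusted p = 0.000925). In neither did a nicotinic acid library come near the water range. The cadherin gene cdh-10 rose by 0.96 (SE 0.14) and snf-5, of the sodium-coupled transporter family, by 2.53 (SE 0.33), with 3.35, 1.76 and 1.77 CPM with nicotinic acid, against 0.45, 0.422 and 0.331 CPM with water. The other 8 of the 12 rises with the smallest p were the collagens col-166, col-10, col-167, col-144, col-159 and col-176, and Y47G6A.19 and F57H12.6. All 12 rises and all 12 falls with the smallest p were stable. Their choice by p from the same libraries favours this, so it is no separate support.

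**Figure D2:**
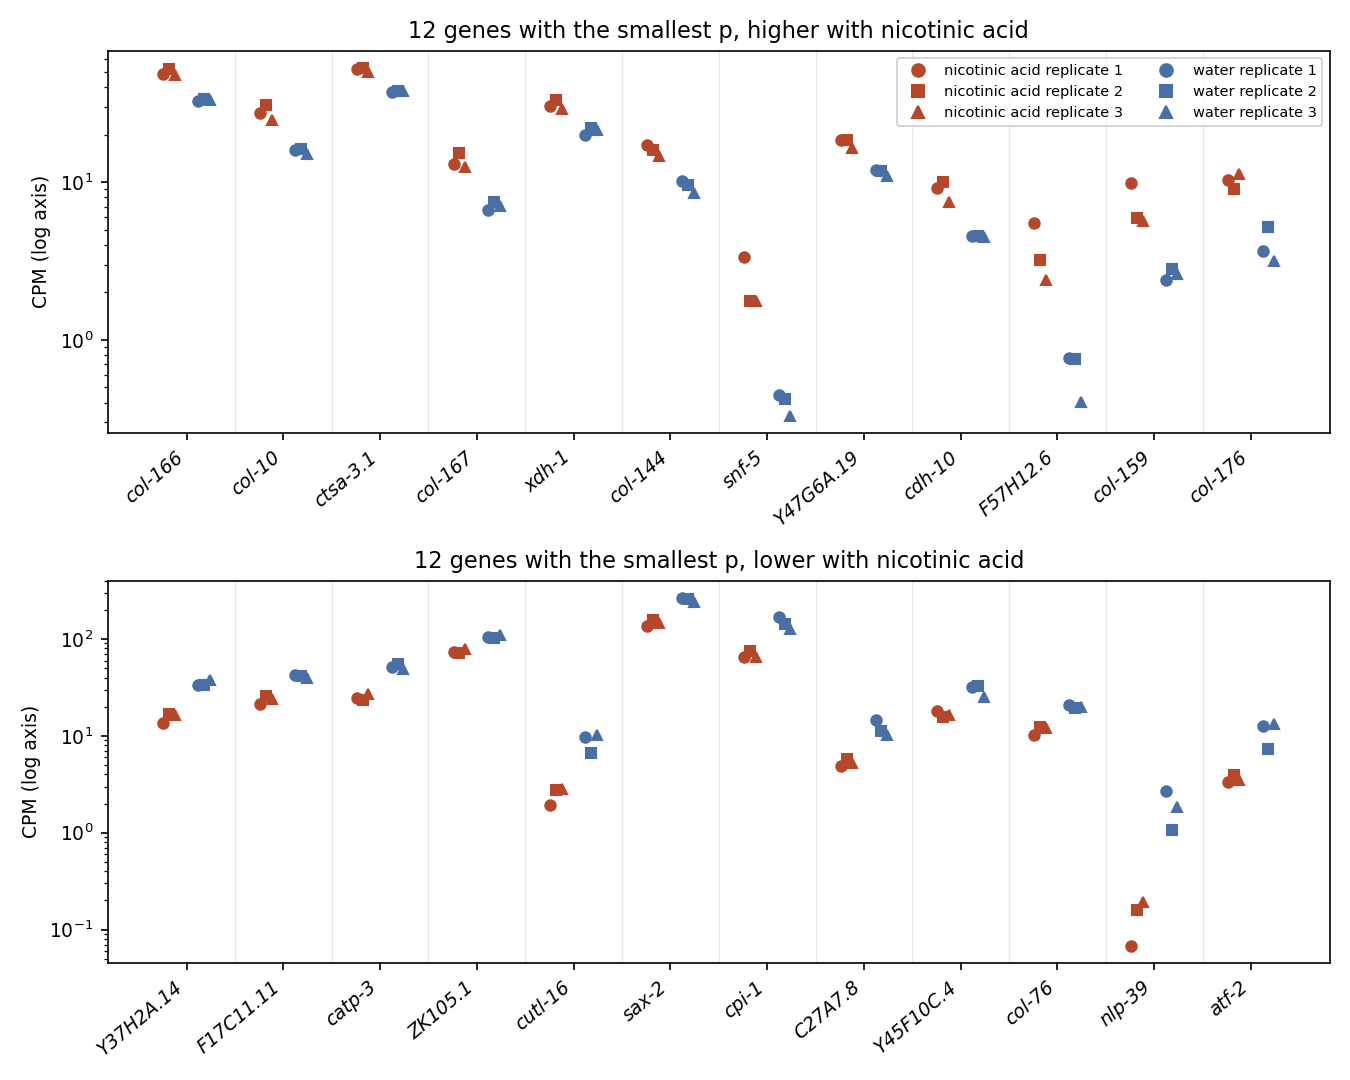
CPM in each library (vertical axis, logarithmic) of the 12 genes with the smallest p in each direction, nicotinic acid libraries in red left of the water libraries in blue, with a marker shape per replicate number. The groups are apart for every gene, as for Y37H2A.14 at 13.6 to 16.8 CPM with nicotinic acid and 33.7 to 37.5 CPM with water.

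A group of immune effector genes was lower. PMK-1, a p38 kinase, runs the main pathway by which the gut induces antimicrobial genes. Of 16 PMK-1-dependent effectors, all tested, 8 fell (50%, against 3.4% of all genes tested), 0 rose and the median was -0.48. The 3 members above 0 were irg-4, irg-5 and clec-67, at 0.45, 0.08 and 0.08 on the log2 scale. Of these irg-4 was higher in each nicotinic acid library than in any water library (edgeR adjusted p = 0.337). The summed share of the 16 genes in all counts was 0.0680% to 0.0743% with nicotinic acid, against 0.0918% to 0.101% with water, without overlap (exact permutation test, two-sided, p = 0.1, the smallest that 3 against 3 allows). The effector sysm-1 averaged 8.56 ± 1.3 CPM with nicotinic acid and 15.1 ± 1.4 CPM with water (SD, n = 3 each), a log2 difference of -0.81 (edgeR adjusted p = 0.00443). The CUB-like gene K08D8.5 had 4.85, 5.24 and 5.99 CPM with nicotinic acid, against 9.49, 8.62 and 9.09 CPM with water (-0.76, SE 0.13, edgeR adjusted p = 0.00816, stable). The groups did not overlap, and every nicotinic acid library was below 6 CPM. The calls of sysm-1, C17H12.8 (-0.49), asp-12 (-0.84), catp-3 and lys-7, which are also in the list, were stable. That of K08D8.4 (-0.59, edgeR adjusted p = 0.0198) ended without nicotinic acid replicate 1 or 2 or water replicate 3 (highest edgeR adjusted p = 0.0746), and that of irg-8, the smallest fall of the list (-0.24, edgeR adjusted p = 0.0328), in 6 of the 9 refits, those without any 1 nicotinic acid library, water replicate 2 or 3 or MNA replicate 2. Of 21 CUB-like and infection response genes tested, a list that shares K08D8.5, 2 fell (9.52%, against 3.4% of all genes tested) and 0 rose. The other that fell was dod-23 (-0.46), whose call ended in 7 of the 9 refits (highest edgeR adjusted p = 0.125). The number of PMK-1-dependent effectors that fell was 6 to 9 when 1 library was left out, and 8 in DESeq2 and limma-voom.

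The signalling genes above these effectors lay mostly below 0 as well. Of 8 PMK-1 pathway genes 6 were below 0, with a median of -0.14, 0 passed in edgeR and limma-voom, 1 passed in DESeq2 and 3 had an unadjusted p below 0.05. The p38 kinase gene pmk-1 averaged 18.1 ± 1.7 CPM with nicotinic acid and 20.7 ± 1.9 CPM with water (SD, n = 3 each), and the groups overlapped (log2 fold change -0.20, interval -0.39 to -0.01, edgeR adjusted p = 0.23). The MAP kinase kinase kinase gene nsy-1 had 56.4, 74.8 and 69.1 CPM with nicotinic acid, against 93.2, 81.7 and 79.3 CPM with water (log2 fold change -0.35, edgeR adjusted p = 0.0945). It passed in DESeq2 (adjusted p = 0.0225) and without nicotinic acid replicate 2 (edgeR adjusted p = 0.0475). The adaptor gene tir-1, whose product can also cleave NAD, was at -0.36 (edgeR adjusted p = 0.164), and passed without water replicate 2 (0.0252). The kinase gene sek-1 was at -0.07 and the transcription factor gene atf-7 at -0.08 on the log2 scale. The gut GATA factor gene elt-2 lay at -0.24 with no overlap between groups (edgeR adjusted p = 0.143).

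Among lysozymes, of which lys-7 also stands in that list, 2 of 11 genes tested fell (18.2%, against 3.4% of all genes tested) and 0 rose, with 10 of the 11 below 0. These were lys-7, whose call was stable, at -0.61 (SE 0.08, edgeR adjusted p = 0.00335), and lys-2 at -0.46, which lost its call without nicotinic acid replicate 1, water replicate 2 or water replicate 3 (highest edgeR adjusted p = 0.0937). Of 104 C-type lectin genes tested (of 240 entries), a family of secreted sugar-binding proteins, 4 fell and 1 rose. These counts were 3.85% and 0.96%, near the 3.4% and 1.94% of all genes tested, and 53 members were above 0, with a median of 0.007. Without water replicate 1 or 3 or MNA replicate 1 or 2 the number that fell was 1. Of the 4 that fell clec-196 was stable (-0.94, SE 0.16, edgeR adjusted p = 0.00662). Of 37 antimicrobial and caenacin peptide genes tested 2 rose (5.41%), fipr-1 at 0.70 and spp-18 at 0.30, and 1 fell (2.70%), cnc-4 at -1.32. None of the 3 was stable: each lost its call without nicotinic acid replicate 1 or 3, spp-18 also without water replicate 2 or 3, fipr-1 without nicotinic acid replicate 2 or water replicate 1 or 2, and cnc-4 without nicotinic acid replicate 2, water replicate 1 or 3 or MNA replicate 1 or 2 (highest edgeR adjusted p 0.110, 0.0943 and 0.141).

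Many collagens of the cuticle rose, and a few fell. The cuticle is a collagen coat secreted by the epidermis and renewed at each moult, and the collagens named for body shape (dumpy, squat, roller, long, blister) are the ones whose mutants deform it. Of 112 numbered collagen genes tested (of 156 entries) 37 rose (33.0%) and 4 fell (3.57%), with a median of 0.85. Among all genes tested 1.94% rose and 3.4% fell, so the share of numbered collagens that fell was near that of all genes. Of the 22 genes in the body shape and blister list, called shape collagens here, 13 rose (59.1%), 2 fell (9.09%) and 7 did not pass, with a median of 1.60. The list also holds the hedgehog-related gene qua-1, which is not a collagen and is among those that did not pass (1.00, edgeR adjusted p = 0.0713). It passed in DESeq2 (adjusted p = 0.00916) and limma-voom (0.0407). The collagen gene lon-3, in which mutants are long, had 14.5, 11.6 and 7.56 CPM with nicotinic acid, against 2.65, 2.79 and 4.12 CPM with water (log2 fold change 1.80 with SE 0.24, edgeR adjusted p = 0.00452). The roller gene rol-8 had 32, 32.8 and 20.2 CPM with nicotinic acid, against 8.32, 7.60 and 11.7 CPM with water (1.61, SE 0.25, edgeR adjusted p = 0.0163). In both the nicotinic acid libraries were all above the water libraries, with nicotinic acid replicate 3 the lowest of its group and water replicate 3 the highest of its own. The call of lon-3 was stable, and that of rol-8 ended without nicotinic acid replicate 1 or water replicate 1 (highest edgeR adjusted p = 0.0861). The genes dpy-4, dpy-5, dpy-13, sqt-1, sqt-2 and rol-6 rose by 1.60 to 1.76 on the log2 scale, and none of these 6 was stable.

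Within the shape collagens the members did not move together. The blister genes bli-1, a collagen of the struts of the adult cuticle, and bli-6 rose by 3.01 and 2.76 (edgeR adjusted p = 0.0356 and 0.0394), and each lost its call in 6 of the 9 refits, both without water replicate 1 or 3 or any 1 MNA library, bli-1 also without water replicate 2 and bli-6 without nicotinic acid replicate 3 (highest edgeR adjusted p 0.158 and 0.154). The roller gene rol-1 had 23.3, 6.58 and 8.63 CPM with nicotinic acid, against 1.17, 2.58 and 0.884 CPM with water (3.08, SE 0.61, edgeR adjusted p = 0.0357), and this call ended without water replicate 1 or 3 or any 1 MNA library (highest edgeR adjusted p = 0.151). The related bli-2 averaged 3.97 ± 3.3 CPM with nicotinic acid and 0.589 ± 0.41 CPM with water (SD, n = 3 each, edgeR adjusted p = 0.0832), and passed in DESeq2 (adjusted p = 8.11e-05). Of the 6 collagens of the annular furrows, dpy-8 (1.30, SE 0.21, edgeR adjusted p = 0.00992) and dpy-9 (1.28, SE 0.21, edgeR adjusted p = 0.00946) rose and were stable. The other 4, dpy-2, dpy-3, dpy-7 and dpy-10, were at -0.25, -0.23, -0.30 and -0.63 on the log2 scale and did not pass in edgeR. Of these dpy-10 passed in DESeq2 (adjusted p = 0.00196) and limma-voom (0.0244). The dumpy gene dpy-17 had 12.4, 40.1 and 34.5 CPM with nicotinic acid, against 188, 106 and 164 CPM with water (-2.42, SE 0.46, edgeR adjusted p = 0.0372). Its relative dpy-14 had 7.48, 32.9 and 26.8 CPM with nicotinic acid, against 156, 95.9 and 136 CPM with water (-2.56, SE 0.52, edgeR adjusted p = 0.0462). In this pair nicotinic acid replicate 1 was the lowest library and water replicate 2 the lowest control, and the groups did not overlap. The squat gene sqt-3 averaged 81.3 ± 17 CPM with nicotinic acid and 142 ± 45 CPM with water (SD, n = 3 each, edgeR adjusted p = 0.164), and passed in DESeq2 (adjusted p = 0.0445).

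The counts of collagens depended on single libraries. Of the numbered collagens 20 rose and 2 fell without water replicate 1, and 17 rose and 1 fell without water replicate 3. Of the shape collagens 3 rose without water replicate 1, 6 without water replicate 3, nicotinic acid replicate 1 or MNA replicate 1, 7 without nicotinic acid replicate 2 and 8 without water replicate 2 or MNA replicate 3. With the 6 libraries fitted alone 4 of them rose and 0 fell. The falls of dpy-14 and dpy-17 ended without nicotinic acid replicate 2 or 3, water replicate 1 or 3 or any 1 MNA library, that of dpy-14 also without water replicate 2, and both with the 6 libraries fitted alone (highest edgeR adjusted p 0.141 and 0.121). As a share of all counts the shape collagens took 0.0442% to 0.0650% with nicotinic acid and 0.0438% to 0.0722% with water, overlapping (exact permutation test, two-sided, p = 0.6). The numbered collagens took 1.00% to 1.18% with nicotinic acid and 0.925% to 1.14% with water, which also overlapped (exact p = 0.4). In whole-animal RNA, fewer cells of a type and less RNA per cell cannot be told apart.

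**Figure D3:**
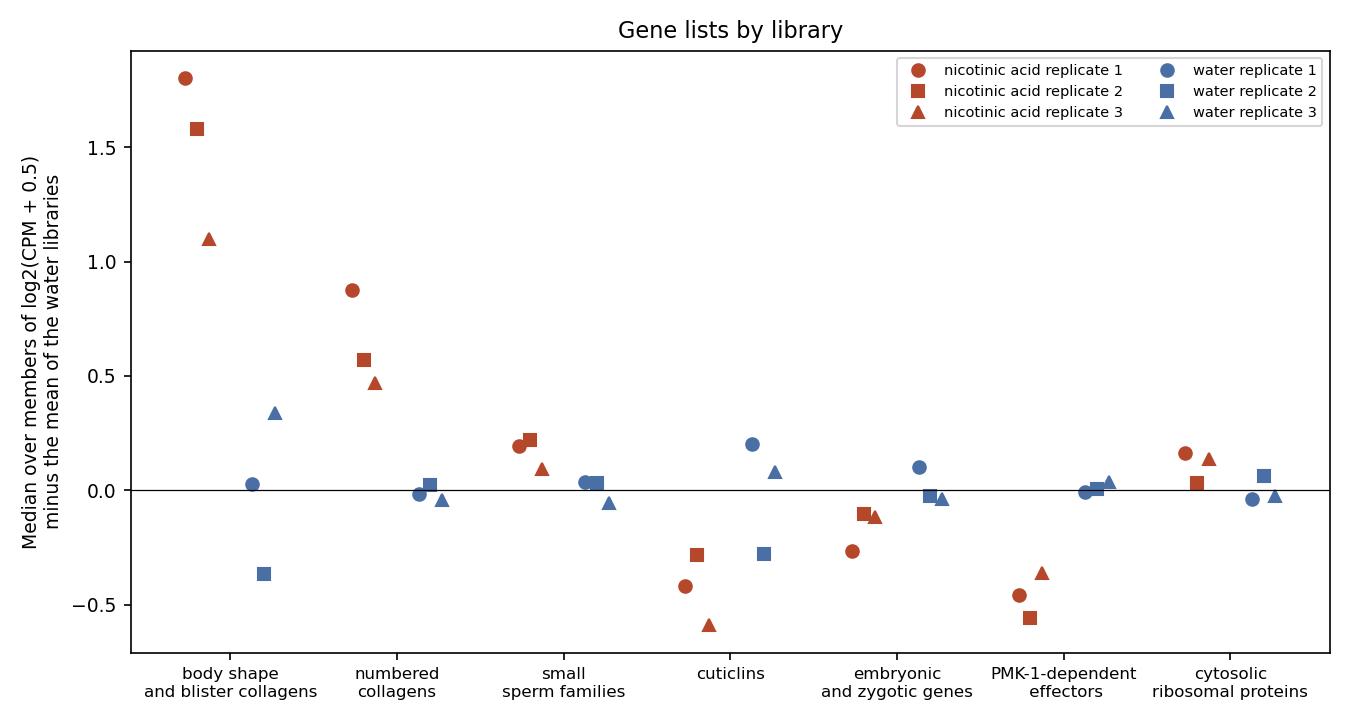
Median over the members of each gene list of log2(CPM + 0.5) minus the mean of the water libraries (vertical axis), in each nicotinic acid library (red, left) and each water library (blue, right). The shape collagen list, which includes qua-1, lies at 1.80, 1.58 and 1.10 in nicotinic acid replicates 1, 2 and 3 and between -0.36 and 0.34 in the water libraries. The cuticlins lie at -0.42, -0.28 and -0.59 in nicotinic acid replicates 1, 2 and 3 and at -0.28 in water replicate 2.

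Cuticlins, the non-collagen proteins with zona pellucida domains in the cuticle, were lower as a list. Of 28 cuticlin genes tested (of 35) 9 fell (32.1%, against 3.4% of all genes tested), 0 rose and the median was -0.58. The cuticlin-like gene cutl-16 had 1.91, 2.78 and 2.80 CPM with nicotinic acid, against 9.71, 6.67 and 10.3 CPM with water (log2 fold change -1.84 with SE 0.19, edgeR adjusted p = 0.000675). The related cutl-13 had 4, 2 and 12 counts with nicotinic acid, against 41, 31 and 49 with water (-2.85, SE 0.43, edgeR adjusted p = 0.00403). Both were stable and the groups were well apart. With MNA cutl-13 and cut-5 averaged 0.120 and 0.162 CPM, so both could pass the filter only through the water libraries. The number of cuticlins that fell is thus partly set by the filter. The others that fell were cutl-9, cutl-28, cut-5, cutl-25, cutl-2, cut-6 and cutl-14, at -2.58 to -1.04 on the log2 scale, and cut-3 missed the threshold at -2.61 (edgeR adjusted p = 0.0542). In DESeq2 (adjusted p = 0.0029) and limma-voom (0.0172) cut-3 passed. Without water replicate 1 the number of cuticlins that fell was 2, and in the other refits it was 7 to 11. As a share of all counts the list took 0.00568% to 0.00755% with nicotinic acid and 0.00701% to 0.0125% with water, overlapping (exact permutation test, two-sided, p = 0.2).

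The 10 largest falls and rises were ranked among genes that passed with a mean of at least 1 CPM and groups not overlapping. Many of these falls were in genes of low level. The neuropeptide-like gene nlp-39 had 2, 3 and 6 counts with nicotinic acid, against 60, 25 and 50 with water (log2 fold change -3.69 with SE 0.45, edgeR adjusted p = 0.00143). The insulin-like gene ins-19 had 0.239, 1.87 and 0.740 CPM with nicotinic acid, against 8.50, 5.70 and 6.85 CPM with water (-3.02, SE 0.46, edgeR adjusted p = 0.00964). The chondroitin proteoglycan gene cpg-20 had 2, 8 and 11 counts with nicotinic acid, against 49, 36 and 50 with water (-2.76, SE 0.43, edgeR adjusted p = 0.00487). These 3 calls were stable, as were those of F57B1.6 at -2.66, Y41D4B.6 at -2.64 and rocf-1 at -2.63. With MNA F57B1.6 and cpg-20 averaged 0.195 and 0.304 CPM, and both could pass the filter only through the water libraries. The direction of both was thus set by the filter. The remaining members of the 10 largest falls were the collagen gene col-121 (-3.01), pqn-73, whose product is rich in glutamine and asparagine (-3.01), the Notch ligand relative dsl-6 (-2.91) and R09E10.5 (-2.73). These 4 lost their calls without nicotinic acid replicate 3, water replicate 1 or water replicate 3, and col-121 also without any 1 MNA library (highest edgeR adjusted p 0.117, 0.0795, 0.0576 and 0.0826).

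The 10 largest rises of that ranking were also in genes of low or moderate level, and nicotinic acid replicate 1 was the highest library in each. Genes with a mean below 1 CPM, left out of the ranking, rose by up to 4.45 on the log2 scale. F27C1.1 had 133, 37 and 51 counts with nicotinic acid, against 6, 3 and 8 with water (log2 fold change 3.54 with SE 0.55, edgeR adjusted p = 0.00816, stable). Y113G7C.1 had 106, 29 and 36 counts with nicotinic acid, against 7, 5 and 5 with water (3.17, SE 0.54, edgeR adjusted p = 0.0101, stable). No role is given here for either gene, and in both the groups were far apart. The remaining 8 lost their calls without water replicate 1 or 3. These were W03F11.4 (3.29) and ssq-2 (3.07), lost in no other refit, spch-1, of the sperm chromatin protein family (3.18), and gipc-2 (3.04), both lost also without water replicate 2, and rol-1, Y47G6A.15 (3.05) and the collagen genes col-49 (3.49) and col-138 (3.04). The call of spch-1 ended also without MNA replicate 1, and those of Y47G6A.15, col-49 and col-138 without any 1 water or MNA library (highest edgeR adjusted p over these 8 genes 0.157). Of genes with a high level, the collagen gene col-124 averaged 293 ± 56 CPM with nicotinic acid and 183 ± 13 CPM with water, and the ornithine aminotransferase gene oatr-1 188 ± 7.4 CPM with nicotinic acid and 155 ± 15 CPM with water (SD, n = 3 each, edgeR adjusted p = 0.0399 and 0.0255). The gene chdp-1 averaged 376 ± 16 CPM with nicotinic acid and 436 ± 10 CPM with water (SD, n = 3 each, edgeR adjusted p = 0.0314). These 3 calls ended in 6, 4 and 7 of the 9 refits, without water replicate 1 or 3 or nicotinic acid replicate 1 among others (highest edgeR adjusted p 0.146, 0.0983 and 0.134).

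Other structural genes that fell were the intermediate filament gene ifa-3, at 0.615, 2.67 and 2.06 CPM with nicotinic acid, against 13.2, 8.19 and 8.80 CPM with water (log2 fold change -2.55, edgeR adjusted p = 0.0164), and the patched-related gene ptr-25 (-2.21, edgeR adjusted p = 0.0168). Among the refits with a library omitted, the first lost its call without water replicate 1 (0.0516) and the second without nicotinic acid replicate 3 (0.0516), and both lost it with the 6 libraries fitted alone. Other intermediate filaments went the other way: ifa-1 (0.37, SE 0.08, edgeR adjusted p = 0.0172, stable) and the gut filament gene ifc-1 (0.43, SE 0.09, edgeR adjusted p = 0.0201) rose, the call of ifc-1 ending without water replicates 1, 2 or 3 or nicotinic acid replicates 2 or 3 (highest edgeR adjusted p = 0.0703). Of 61 hedgehog-related and patched-related genes tested, which act in the epidermis, 3 rose (4.92%, against 1.94% of all genes tested). These were wrt-4, grd-1 and grd-6, at 1.71, 0.88 and 1.65 on the log2 scale. The number that rose was 1 without nicotinic acid replicate 1 or water replicate 1, 8 without nicotinic acid replicate 3, and 9 in DESeq2.

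Genes of embryos, which gravid adults carry in the uterus, were also lower as a list. Of 21 embryonic and zygotic genes tested (of 25) 2 fell (9.52%, against 3.4% of all genes tested), 0 rose, 18 were below 0 and the median was -0.18. The number that fell was 0 without water replicate 1 and with the 6 libraries fitted alone, and 4 in DESeq2 and limma-voom. The summed list took 0.142% to 0.145% of counts with nicotinic acid, against 0.149% to 0.156% with water, without overlap (exact permutation test, two-sided, p = 0.1, the smallest possible), and its member hlh-1 was at 0 in all 6 libraries. The homeobox gene ceh-36 averaged 2.45 ± 0.72 CPM with nicotinic acid and 4.57 ± 0.47 CPM with water (SD, n = 3 each, log2 fold change -0.88, edgeR adjusted p = 0.0198), and elt-1, a GATA factor of the early epidermis, was at -0.36 (edgeR adjusted p = 0.0473). The call of ceh-36 ended without nicotinic acid replicate 1 or 2 or water replicate 1, and that of elt-1 in every refit but the one without nicotinic acid replicate 2 (highest edgeR adjusted p 0.0775 and 0.176). The hatching protease gene hch-1 averaged 5.65 ± 4.2 CPM with nicotinic acid and 31.7 ± 7.8 CPM with water (SD, n = 3 each, edgeR adjusted p = 0.0655). It passed in DESeq2 (adjusted p = 0.0060), limma-voom (0.00629) and without nicotinic acid replicate 1 (edgeR adjusted p = 0.0289). The part of embryo content in the falls of cuticlins, dpy-14 and dpy-17 was not tested.

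Sperm genes of very low level rose. Of 26 small sperm family genes tested (of 75 entries) 7 rose (26.9%, against 1.94% of all genes tested), 0 fell and the median was 0.25. Of 20 sperm development and function genes tested (of 34) 4 rose (20%), 0 fell and the median was 0.39. The sperm family gene ssp-34 had 1.30, 0.695 and 0.579 CPM with nicotinic acid, against 0.045, 0.127 and 0.110 CPM with water (log2 fold change 3.12 with SE 0.51, edgeR adjusted p = 0.00626, stable). The sperm phosphatase gene gsp-3 had 57, 6 and 23 counts with nicotinic acid, against 1, 4 and 1 with water (3.60, SE 0.82, edgeR adjusted p = 0.0317), and msd-4, of the major sperm protein domain family, rose by 2.50 (SE 0.54, edgeR adjusted p = 0.0255). With water libraries at or near the floor of 3 counts, the sizes of such fold changes are imprecise. In each of the 11 genes that rose nicotinic acid replicate 1 was the highest library. The calls of gsp-3 ended without nicotinic acid replicate 1, water replicate 1 or water replicate 3, and those of msd-4 without any 1 water library (highest edgeR adjusted p 0.120 and 0.0969). Of the small sperm families 3 rose without nicotinic acid replicate 1, MNA replicate 1 or MNA replicate 2, 4 without water replicate 2, and 1 without water replicate 1 or 3. Of the sperm development genes 2 rose without nicotinic acid replicate 1 or water replicate 2, 1 without water replicate 1 and 0 without water replicate 3. With a filter of 1 CPM in 3 libraries 2 genes rose in each of these sperm lists, and with no filter on low counts 5 and 4. Genes with water libraries this low could pass the filter only through libraries where they were higher. The direction among the tested members is thus partly set by the filter.

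The major sperm proteins, the motor proteins of crawling nematode sperm, had too few counts to be tested gene by gene. Summed over 31 entries they had 181, 40 and 46 counts with nicotinic acid, against 4, 12 and 13 with water, and 6 of the genes were at 0 in all 6 libraries. The groups did not overlap (exact permutation test on the share of counts, two-sided, p = 0.1, the smallest possible), and nicotinic acid replicate 1 held most of these counts. Near-identical copies in this family can share reads, and the rule by which such reads were counted is not given in the sources used here. Among 44 oocyte, eggshell and germline genes 1 rose, fog-3, which commits germ cells to sperm, at 1.37, 1.18 and 1.26 CPM with nicotinic acid, against 0.360, 0.507 and 0.515 CPM with water (log2 fold change 1.45 with SE 0.26, edgeR adjusted p = 0.00902, stable). The other 43 did not pass in edgeR, while DESeq2 called 3 of them lower. The list took 2.67% to 2.77% of counts with nicotinic acid and 2.84% to 2.97% with water, without overlap (exact permutation test, two-sided, p = 0.1, the smallest possible). Genes of males and spicules summed to 144, 91 and 136 counts with nicotinic acid, against 92, 70 and 111 with water. As shares of all counts these were 0.000435% to 0.000501% with nicotinic acid and 0.000285% to 0.000416% with water, without overlap (exact permutation test, two-sided, p = 0.1, the smallest possible). Of the 7 male and spicule genes tested 6 were above 0, with a median of 0.27, and 0 passed under edgeR, limma-voom or DESeq2. None had an unadjusted p under 0.05 in edgeR, and cwp-1 was at 0 counts. The part of these markers in the sperm gene rises was not tested.

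Argonaute proteins carry small RNAs, and the pair ALG-3 and ALG-4 acts during sperm formation. Of 53 Argonaute and RNA interference genes tested 4 rose (7.55%) and 2 fell (3.77%), against 1.94% and 3.4% of all genes tested. The gene alg-4 had 78, 25 and 30 counts with nicotinic acid, against 1, 4 and 4 with water (log2 fold change 3.71 with SE 0.61, edgeR adjusted p = 0.00824, stable). Its partner alg-3 had 2.70, 1.28 and 1.06 CPM with nicotinic acid, against 0.315, 0.465 and 0.368 CPM with water (2.14, SE 0.46, edgeR adjusted p = 0.0213), and wago-10 rose by 2.43 (SE 0.58, edgeR adjusted p = 0.0307). In all 3 nicotinic acid replicate 1 was the highest library and the groups did not overlap. The calls of alg-3 and wago-10 ended without nicotinic acid replicate 1, water replicate 1 or water replicate 3, and that of wago-10 also without water replicate 2 (highest edgeR adjusted p 0.0873 and 0.130). Smaller moves were those of ppw-2 at 0.26, which was lost without water replicate 1 (0.0648), and of alg-2 at -0.28 and eri-12 at -0.27, both lost without nicotinic acid replicate 1 or 3 or water replicate 1, alg-2 also without water replicate 2, and eri-12 without water replicate 3 or MNA replicate 1 or 2 (highest edgeR adjusted p 0.0919 and 0.136).

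**Figure D4:**
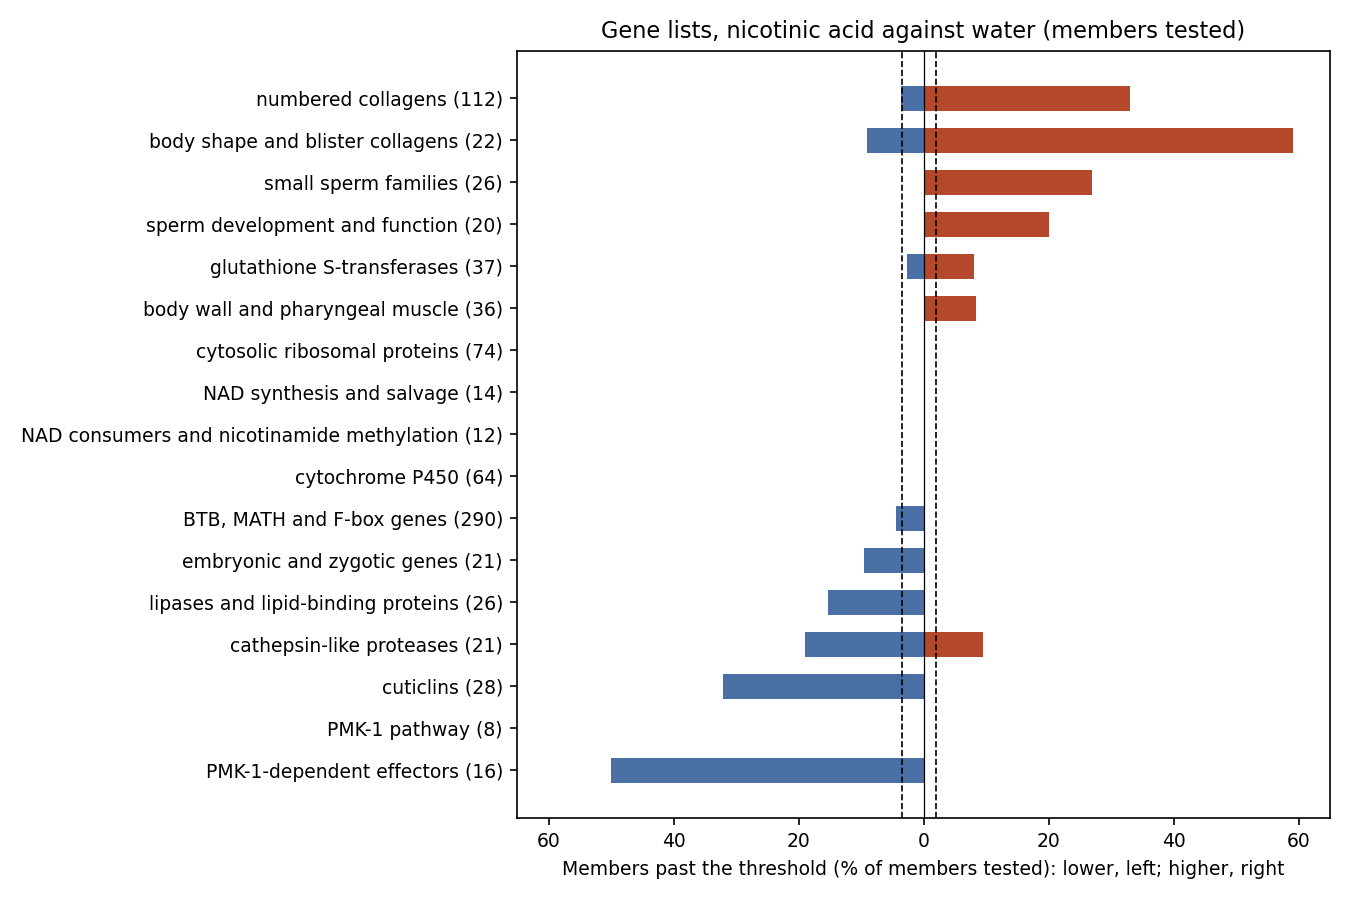
Percentage of the tested members of each gene list that fell (blue, left) or rose (red, right) with nicotinic acid at an edgeR adjusted p below 0.05, with the number tested in brackets and dashed lines at 3.4% lower and 1.94% higher over all genes tested. The shape collagen list, which includes qua-1, reaches 59.1% higher and PMK-1-dependent effectors 50% lower, while the NAD lists stand at 0.

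Digestive proteases of the gut moved in both directions. Of 21 cathepsin-like protease genes tested 4 fell (19.05%) and 2 rose (9.52%), against 3.4% and 1.94% of all genes tested. The aspartyl protease gene asp-5 had 528, 522 and 607 CPM with nicotinic acid, against 710, 706 and 682 CPM with water (log2 fold change -0.34 with SE 0.06, edgeR adjusted p = 0.00975, stable), and asp-6 was at -0.35 (edgeR adjusted p = 0.0255). The cathepsin B-like gene cpr-6 was at -0.23 (edgeR adjusted p = 0.0416), whereas its relatives cpr-5 and cpr-8 rose by 0.32 and 0.62 (edgeR adjusted p = 0.0309 and 0.0353). The calls of asp-6 and cpr-5 ended without nicotinic acid replicate 1 or 2 or water replicate 1, and that of cpr-5 also without water replicate 3 (highest edgeR adjusted p 0.108 and 0.113), that of cpr-8 in 6 and that of cpr-6 in 8 of the 9 refits. Of 42 amino acid and sugar transporter genes tested 3 rose (7.14%) and 2 fell (4.76%), against 1.94% and 3.4% of all genes tested. The falls were aat-3 (-0.55, edgeR adjusted p = 0.0138), lost without water replicate 1 (0.0581), and swt-6 (-0.57, edgeR adjusted p = 0.0239), lost without nicotinic acid replicate 1 or water replicate 3 (highest edgeR adjusted p = 0.0908). The peptide carrier gene pept-1 rose by 0.21 (SE 0.05, edgeR adjusted p = 0.0202) and mct-4, of the monocarboxylate transporter family, by 0.32 (SE 0.06, edgeR adjusted p = 0.0148). The call of pept-1 ended without nicotinic acid replicate 2, water replicate 1 or water replicate 3 (highest edgeR adjusted p = 0.0732), and that of mct-4 without water replicate 1 (0.0539).

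Fat metabolism genes that passed were few. The gene fat-2, a delta-12 fatty acid desaturase needed for polyunsaturated fat, had 631, 533 and 601 CPM with nicotinic acid, against 755, 700 and 745 CPM with water (log2 fold change -0.32 with SE 0.06, edgeR adjusted p = 0.0156), which did not pass without water replicate 1 (0.0670). The diacylglycerol acyltransferase gene dgat-2, of the last step of triglyceride synthesis, had 9.22, 9.73 and 9.53 CPM with nicotinic acid, against 12.5, 13.6 and 13.7 CPM with water (-0.49, SE 0.10, edgeR adjusted p = 0.0149, stable). Every nicotinic acid library lay below every water library in both. Of 26 lipase and lipid-binding genes tested 4 fell (15.4%, against 3.4% of all genes tested) and 0 rose. Those that fell were the hormone-sensitive lipase gene hosl-1 (-0.33), the lipid-binding protein genes lbp-1 (-0.41) and lbp-3 (-0.23), and far-6 (-0.31), of the fatty acid and retinol binding family. Without water replicate 1 that count was 0, without nicotinic acid replicate 3 or water replicate 3 it was 1, and without nicotinic acid replicate 1 it was 2. Of 31 acyl-CoA synthetase and dehydrogenase genes tested 3 rose (9.68%, against 1.94% of all genes tested). These were acs-10 (3.11, SE 0.57, edgeR adjusted p = 0.0101, stable), acdh-8 (2.49) and acs-6 (1.30), each of low level. The number that rose was 1 without nicotinic acid replicate 1, water replicate 1 or water replicate 3. With 1, 5 and 1 counts with water and a mean of 0.272 CPM with MNA, acs-10 could pass the filter only through nicotinic acid. Its direction was thus set by the filter. The yolk proteins vit-2 and vit-6 were at -0.22 each on the log2 scale, and vitellogenins took 5.93% ± 0.90 of counts with nicotinic acid and 6.79% ± 0.37 with water (SD, n = 3 each, exact permutation test, two-sided, p = 0.2).

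Few stress and detoxification genes passed. None of 64 cytochrome P450 genes tested passed in edgeR, DESeq2 or limma-voom (4 at an unadjusted p below 0.05). Of 60 UDP-glucuronosyltransferase genes 2 fell (3.33%, against 3.4% of all genes tested), ugt-44 at -0.57 and ugt-57 at -0.79. Both were lost without water replicate 1 or 3, and ugt-57 also without nicotinic acid replicate 1 or 3 or any 1 MNA library (highest edgeR adjusted p 0.0684 and 0.161). The glutathione S-transferase gene gst-4, a reporter of the oxidative stress regulator SKN-1, had 16.1, 17.5 and 16.5 CPM with nicotinic acid, against 10.9, 15 and 14.7 CPM with water, with no overlap but short of the threshold (log2 fold change 0.30, edgeR adjusted p = 0.158). Of 37 glutathione S-transferase genes tested 32 were above 0, 3 rose (8.11%, against 1.94% of all genes tested), 1 fell and the median was 0.31. Those that rose were gst-10 (0.52), gst-12 (0.93) and gst-28 (0.53), with edgeR adjusted p = 0.0449, 0.0351 and 0.0477. None was stable, and without nicotinic acid replicate 1 or 3 or water replicate 1 or 2 the number that rose was 0, without nicotinic acid replicate 2 or MNA replicate 1 it was 1. The gene gst-22 fell by 0.49 (SE 0.10, edgeR adjusted p = 0.0163), but not without water replicate 1 or 3 (highest edgeR adjusted p = 0.0647). The glutathione peroxidase gene gpx-3 had 2.05, 2.89 and 2.86 CPM with nicotinic acid, against 1.26, 1.18 and 1.33 CPM with water (1.04, SE 0.26, edgeR adjusted p = 0.0342), lost without nicotinic acid replicate 2 or 3 or any 1 water library (highest edgeR adjusted p = 0.103). The ER chaperone gene dnj-27 fell, at -0.43 on the log2 scale (edgeR adjusted p = 0.00575, SE 0.07, stable). The superoxide dismutase gene sod-3, a known target of the FOXO factor DAF-16, had 3.21, 3.15 and 3.22 CPM with nicotinic acid, against 1.12, 1.82 and 1.03 CPM with water (1.27, SE 0.24, edgeR adjusted p = 0.012, stable). The groups were well apart, with nicotinic acid libraries close together. Of 16 DAF-16-activated genes tested (of 25) sod-3 was the 1 that rose. In that list 0 fell, 12 were below 0, 1 was lower without overlap and the median was -0.27. The list took 0.204% of counts in water replicate 1, against 0.1168% and 0.1197% in water replicates 2 and 3. With nicotinic acid its share was 0.1042% to 0.1224%. The regulators skn-1, daf-16 and hsf-1 were at -0.04, -0.03 and -0.02, each with a 95% interval within -0.15 and 0.08.

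Neuropeptide genes lay above 0 more often than not. Of 30 FMRFamide-like peptide genes tested 25 were above 0, 11 did not overlap on the higher side (10.7% of all genes tested did so) and 1 rose, flp-9, at 0.45 (edgeR adjusted p = 0.033), with a median of 0.25. Of 67 neuropeptide-like genes 54 were above 0, 20 did not overlap on the higher side, and besides the fall of nlp-39 1 rose, nlp-80, at 0.71 (edgeR adjusted p = 0.0372). Among 29 neuronal genes the touch channel gene mec-4 rose, with 1.16, 1.60 and 1.42 CPM with nicotinic acid, against 0.764, 0.634 and 0.699 CPM with water (log2 fold change 0.98, edgeR adjusted p = 0.0352). None of these 3 rises was stable: all lost the call without nicotinic acid replicate 2 or 3 or water replicate 1 or 2, flp-9 and mec-4 also without MNA replicate 1, mec-4 without water replicate 3, and nlp-80 without nicotinic acid replicate 1 or MNA replicate 2 (highest edgeR adjusted p 0.115, 0.110 and 0.0953). As shares of all counts, neuronal genes took 0.0554% to 0.0644% with nicotinic acid and 0.0503% to 0.0582% with water, and muscle genes 0.704% to 0.830% with nicotinic acid and 0.630% to 0.722% with water, both overlapping. Of 36 muscle genes 27 were above 0, with a median of 0.19, 3 rose (8.33%, against 1.94% of all genes tested) and 0 fell. The troponin T gene mup-2, the thin filament gene unc-87 and the myosin light chain gene mlc-1 rose by 0.35, 0.38 and 0.39 without overlap between groups (edgeR adjusted p = 0.0258, 0.0337 and 0.0173). The number that rose was 0 without water replicate 1 and 1 without any other single water library. It was 1 without nicotinic acid replicate 2 or 3, 6 without nicotinic acid replicate 1 and 7 without MNA replicate 3, and it was 5 with the 6 libraries fitted alone and 6 in DESeq2.

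Of 290 BTB, MATH and F-box genes tested (of 410), families of adaptors that bring proteins to ubiquitin ligases, 13 fell (4.48%, against 3.4% of all genes tested) and 0 rose (against 1.94%). The gene fbxc-24 had 1.06, 1.93 and 1.67 CPM with nicotinic acid, against 5.13, 3.76 and 4.31 CPM with water (log2 fold change -1.52 with SE 0.21, edgeR adjusted p = 0.0029), and bath-9 fell by 1.04 (SE 0.14, edgeR adjusted p = 0.00251), both stable. Of the others fbxc-51 had the highest level, at 16.8 ± 5.7 CPM with nicotinic acid and 39.5 ± 2.5 CPM with water (SD, n = 3 each, edgeR adjusted p = 0.0239). The number that fell was 4 without nicotinic acid replicate 1, 6 without nicotinic acid replicate 3, 3 without water replicate 1, 5 without water replicate 3 and 8 without MNA replicate 1. Of 186 nuclear hormone receptor genes tested 3 fell (1.61%, against 3.4% of all genes tested), nhr-43 at -0.78, nhr-47 at -0.30 and nhr-221 at -1.67. The call of nhr-43 ended without nicotinic acid replicate 1 or water replicate 1, and the others in all 9 refits (highest edgeR adjusted p 0.0726, 0.127 and 0.157).

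Genes on the X chromosome, placed by the RefSeq annotation of WBcel235, made up 124 of the 475 that fell. That was 6.07% of the 2044 tested on X, against 2.16% to 3.15% on each of the other chromosomes, and 1.81% of those on X rose. The median log2 fold change on X was -0.038, against -0.002 to 0.008 on the others.

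Several large complexes shifted by small amounts with few or no members past the threshold. Of 22 autophagy and lysosome regulator genes 0 passed in edgeR and all were below 0, with a median of -0.13. Of the 22, 9 did not overlap on the lower side (11.9% of all genes tested did so) and 8 had an unadjusted p below 0.05 (19.2% of all genes tested). DESeq2 called 5 of them lower and limma-voom 2, edgeR called 1 without nicotinic acid replicate 2 or water replicate 2, and with library totals as the only scaling 20 were below 0. The autophagosome marker gene lgg-1 averaged 246 ± 4.5 CPM with nicotinic acid and 298 ± 46 CPM with water (SD, n = 3 each, edgeR adjusted p = 0.0822), and the adaptor gene sqst-1 averaged 76.9 ± 11 CPM with nicotinic acid and 123 ± 32 CPM with water (edgeR adjusted p = 0.107). Water replicate 1 was the highest library in both. Water replicates 1, 2 and 3 had 350, 271 and 272 CPM of lgg-1 and 160, 104 and 105 CPM of sqst-1. The list took 0.2175%, 0.1821% and 0.1893% of counts in these libraries, against 0.1693% to 0.1775% with nicotinic acid. Of 21 subunit genes of the V-ATPase, the proton pump of lysosomes and gut, 0 passed in edgeR and 18 were above 0, with a median of 0.11. Of the 21, 9 did not overlap on the higher side (10.7% of all genes tested did so) and 10 had an unadjusted p below 0.05 (19.2% of all genes tested). DESeq2 called 3 of them and limma-voom 0, and edgeR called 1 without water replicate 2 and 2 without MNA replicate 3. The gut subunit gene vha-6 averaged 306 ± 7.6 CPM with nicotinic acid and 267 ± 16 CPM with water (SD, n = 3 each, edgeR adjusted p = 0.0537), and passed in DESeq2 (adjusted p = 0.0127). Of 48 respiratory chain and ATP synthase genes 47 were above 0, with a median of 0.088, and 1 rose, the cytochrome c gene cyc-2.2. It had 38, 11 and 16 counts with nicotinic acid, against 2, 1 and 1 with water (log2 fold change 3.78 with SE 0.59, edgeR adjusted p = 0.00487, stable). That size rests on water libraries under the floor of 3 counts. With a mean of 0.126 CPM with MNA, cyc-2.2 could pass the filter only through nicotinic acid. Its direction was thus set by the filter. With library totals as the only scaling the median of all genes moved to 0.024.

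The MNA libraries shared the water controls, and the doses differ under either reading of the labels, so the values are given side by side without a comparison. Y37H2A.14 averaged 15.5 ± 1.7 CPM with nicotinic acid, 17.8 ± 0.93 CPM with MNA and 35.0 ± 2.2 CPM with water (SD, n = 3 each). The cuticlin gene cutl-16 averaged 2.50 ± 0.51 CPM with nicotinic acid, 2.16 ± 0.11 CPM with MNA and 8.89 ± 1.9 CPM with water. The collagen gene lon-3 averaged 11.2 ± 3.5 CPM with nicotinic acid, 13.5 ± 0.72 CPM with MNA and 3.19 ± 0.81 CPM with water. The lysozyme gene lys-7 averaged 248 ± 21 CPM with nicotinic acid, 297 ± 38 CPM with MNA and 379 ± 5.6 CPM with water. The sperm gene ssq-2 averaged 4.0 ± 2.7 CPM with nicotinic acid, 1.13 ± 0.29 CPM with MNA and 0.481 ± 0.035 CPM with water.

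**Figure D5:**
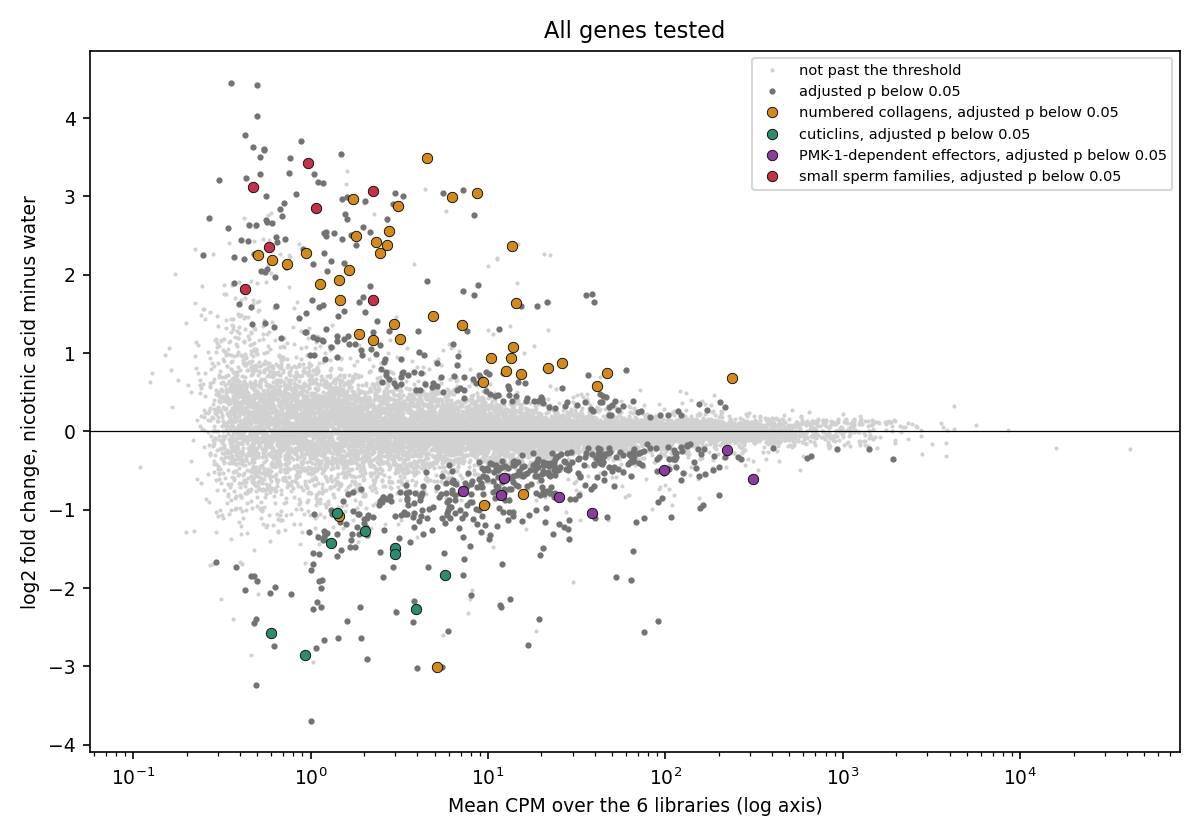
Log2 fold change of nicotinic acid minus water (vertical axis) against mean CPM over the 6 libraries (horizontal axis, logarithmic), for all 13985 genes tested, with dark points at an edgeR adjusted p below 0.05 and members of 4 lists in colour. Collagens and sperm genes that passed lie mostly above 0, cuticlins and PMK-1-dependent effectors below it.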

How the data were processed

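RNA of whole worms had been made into libraries with a TruSeq kit from 2 µg of total RNA, per the labels' protocols. The deposited values used are whole-number counts per gene and library with no normalization, made by the authors with CASAVA, TopHat 1.4.1 and HTSeq per the submitters' processing notes. Genome build, annotation and strand setting are not given in the labels or notes used here, so no coordinates are printed. A deposited RPKM table was not used. Symbols and chromosomes came from RefSeq locus tags of WBcel235, which matched 44080 of 45461 entries and 99.3% of counts.

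Genes were kept with filterByExpr at a minimum count of 10, which left 13985 with 99.9% of the counts. One robust edgeR 4.0.16 quasi-likelihood model (R 4.3.3, TMM factors, a term for group) was fitted to all 9 libraries and nicotinic acid was tested against water, two-sided, with Benjamini-Hochberg adjustment and a threshold of 0.05. CPM are counts over the TMM-scaled library total. Shares of counts were compared by an exact permutation test. The method was tested on simulated data.

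The comparison, the 67 gene lists and the rule for named genes were chosen with earlier results of these data known. The rule took the 10 largest changes in each direction (mean of at least 1 CPM, groups not overlapping), the 12 smallest p, the 6 highest levels, up to 4 members of each list with the smallest p, all members of the NAD and PMK-1 pathway lists and a fixed set of stress and metabolism genes, 196 genes in all, and those taken from lists are described only where their list is; other genes named are list members chosen after their values were seen. Depth limits low genes, and floors and intervals cover counting or model error only. Alternatives covered a replicate block, the 6 libraries alone, RLE factors, library totals, DESeq2 1.42.0, limma-voom 3.58.1, other filters and leaving out each library. Promoter motifs were not searched, since no promoter sequence was used here.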

Additional observations from a re-analysis of the deposited data

How the results depend on the processing

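With replicate number as a block, 289 genes rose and 449 fell, 230 and 395 of them shared with the calls given. Same-numbered libraries did not deviate together (correlations of -0.05, -0.20 and 0.08), so the numbers were not treated as pairs, and the block reduced the shape collagens that rose to 4 and those that fell to 0, ended the calls of ifa-3, ptr-25 and rol-1, took muscle genes that rose to 9, and let haao-1 pass (edgeR adjusted p = 0.0462). Fitted alone, the 6 libraries gave 144 genes higher and 244 lower, 388 in all. With no filter on low counts 475 rose. Leaving out 1 library gave 88 to 280 genes higher, 166 to 558 lower and 254 to 758 in all. The numbers higher and lower stayed within 1.5 times of 272 and 475 under RLE factors (273 and 461), library totals (269 and 375), DESeq2 (359 and 596), limma-voom (249 and 512) and a filter of 1 CPM in 3 libraries (221 and 428). No named gene that passed changed sign under any alternative, and leaving vitellogenins out of the total turned the direction of no list's share of counts. Of 154 genes taken by the naming rule that passed, 54 were stable, 64 lost the call with the 6 libraries alone and 31 with the block. The cause of the differences between settings was not tested. Depth limits genes near the floor, such as the sperm genes in the water libraries, and the conflicting dose limits what the comparison stands for.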

Other observations

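Transthyretin-related genes, a nematode family of secreted proteins, moved in both directions. Of 48 tested (of 58) 4 fell (8.33%) and 2 rose (4.17%) with nicotinic acid, against 3.4% and 1.94% of all genes tested. The gene ttr-50 had 50.6, 73.6 and 65.9 CPM with nicotinic acid, against 131, 109 and 114 CPM with water (log2 fold change -0.90 with SE 0.13, edgeR adjusted p = 0.00874, stable). The groups did not overlap, and nicotinic acid replicate 1 was the lowest library. The other 3 that fell, ttr-2, ttr-45 and ttr-51, were at -0.46, -0.32 and -0.49, and ttr-14 and ttr-17 rose by 0.69 and 0.39. None of these 5 was stable: without water replicate 3 the family had 5 lower and 0 higher, and without nicotinic acid replicate 2 or water replicate 1 it had 1 lower, and without nicotinic acid replicate 1 or 3 or water replicate 2 it had 2 lower.

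Among P-type ATPases and ion exchangers 2 of 63 genes tested rose (3.17%) and 1 fell (1.59%), against 1.94% and 3.4% of all genes tested. The 1 that fell was catp-3, and its relative catp-4 rose, with 4.37, 2.46 and 2.22 CPM with nicotinic acid, against 0.989, 1.14 and 1.03 CPM with water (log2 fold change 1.52 with SE 0.29, edgeR adjusted p = 0.0118, stable). The linker histone gene his-24 fell, at 72.5, 119 and 126 CPM with nicotinic acid and 222, 186 and 215 CPM with water (log2 fold change -0.98, edgeR adjusted p = 0.0421). That call ended without nicotinic acid replicate 2, any 1 water library or any 1 MNA library (highest edgeR adjusted p = 0.149), and 0 of the other 14 histone genes tested passed. Of 24 cytosolic chaperone genes tested 2 fell (8.33%, against 3.4% of all genes tested). These were the small heat shock genes hsp-12.1 (-1.39) and sip-1 (-0.23), and neither was stable (highest edgeR adjusted p 0.124 and 0.154).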
